A study of Mus musculus with 9 samples.

Results

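The genes described are 34 genes of 4 linked programmes that can kill a cell, namely the p53 response, apoptosis, pyroptosis and necroptosis. They were listed by symbol, with no rule on their measured values but with earlier results of these data known. Each was matched to 1 of the 55421 Ensembl mouse genes in the count table. By role, 7 are p53 and its targets in arrest and feedback, 9 belong to the BCL2 family, 5 form the death receptor and apoptosome branch, 10 act in inflammasomes and pyroptosis, and 3 in necroptosis. The filter on low counts kept 33 of the 34 and left out Nlrp1a, which had 2 to 14 counts per library.

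The libraries came from mouse hippocampus, dissociated and sorted live for tdTomato, a red fluorescent protein that the transgenic mice express in neurons. There were 9 libraries in 3 groups of 3: sham-operated wild-type animals, wild-type animals given mild traumatic brain injury (mTBI), and Tmsb4x conditional knockout animals given mTBI. The injury was 1 mild controlled cortical impact, an impact on the brain surface, and the sham mice went through the same surgery without the impact. Tmsb4x encodes thymosin beta-4, a small protein that binds actin monomers. Sex, age, the time between injury and dissection, the driver of the knockout and that of tdTomato are not given in the sources used here. No group holds knockout mice without injury, so 3 comparisons were made: wild-type mTBI minus sham (the injury comparison), knockout mTBI minus wild-type mTBI (the knockout comparison), and knockout mTBI minus sham.

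In the p53 response, DNA damage or other stress stabilises the transcription factor p53, which switches on genes that halt the cell cycle, genes that feed back on p53 itself and genes that promote death. In the mitochondrial route to apoptosis, BH3-only proteins of the BCL2 family relieve the guard of BCL2 and BCL-XL over the pore formers BAX and BAK. Cytochrome c then leaves the mitochondria and assembles the APAF1 apoptosome, which activates caspase-9. Death receptors such as FAS work through caspase-8 instead. In pyroptosis, a sensor protein gathers ASC and caspase-1 into an inflammasome, and cleaved gasdermins open pores in the membrane. In necroptosis, the kinases RIPK1 and RIPK3 lead to membrane rupture by MLKL. Much of this control acts on proteins rather than on transcript levels. Inflammasome genes in the brain are known mainly from microglia, the resident immune cells.

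Totals were 36452443 to 39590872 counts per library, where the mates of a read pair were counted singly. Neuronal markers were abundant, at a summed 9340 to 10827 CPM (counts scaled to a common library size, as parts-per-million) for 10 genes. Despite the neuronal sort, 10 oligodendrocyte markers summed to 5478 to 10002 CPM and 10 astrocyte markers to 4236 to 5326 CPM, and the 10 microglia markers reached 298 to 425 CPM. Tmsb4x went against a label: the libraries labelled wild-type sham held 1.68 to 2.73 CPM of it and the knockout libraries 1.83 to 2.79 CPM, while the wild-type mTBI libraries held 900, 553 and 297 CPM. Directions against the group labelled sham, called sham below for short, carry that reservation. The sham libraries also differed little from each other. The mean chi-square per gene between 2 of them was 1.40 to 1.49, against 9.08 to 33.6 in the other groups. It was taken on counts divided by 2, over genes with a halved sum of at least 20. A value of 1 would be pure sampling noise only if each read pair gave 2 counts. The X-linked Xist and Y-linked Ddx3y, scaled by library totals, were at 847 and 0.0505 CPM in wild-type mTBI replicate 3, while the other 8 libraries held at most 0.887 of Xist and at least 49.6 of Ddx3y, so this library differs from the rest in sex-linked genes.

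The level of the 34 genes per kb of exon spanned more than 2 orders of magnitude. Highest were Cycs, which encodes cytochrome c, at 21.9 ± 3.50 CPM per kb, Bcl2l1, which encodes the survival protein BCL-XL, at 20.6 ± 2.08, and Ccng1, the p53 target cyclin G1, at 19.7 ± 1.96 (SD, n = 9 libraries). These 3 did not differ beyond their spread. Il18, a cytokine released in pyroptosis, followed at 15.3 ± 2.15 CPM per kb, and then came Bax at 9.97 ± 1.31, Mdm2 at 9.04 ± 0.572 and Phlda3 at 8.55 ± 1.57. Lowest were Nlrp1a at 0.0427 ± 0.0262, Mlkl at 0.135 ± 0.0463, Casp4 at 0.143 ± 0.125, Ripk3 at 0.185 ± 0.0885 and Nlrp3 at 0.256 ± 0.0764 CPM per kb. Of the inflammasome group, Il18, the NLRP3-binding kinase Nek7 at 5.97 ± 0.394 and the gasdermin Gsdme at 1.56 ± 0.158 stood highest, while the sensors and caspases lay at or below the 1.15 ± 0.198 of Aim2.

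**Figure D1:**
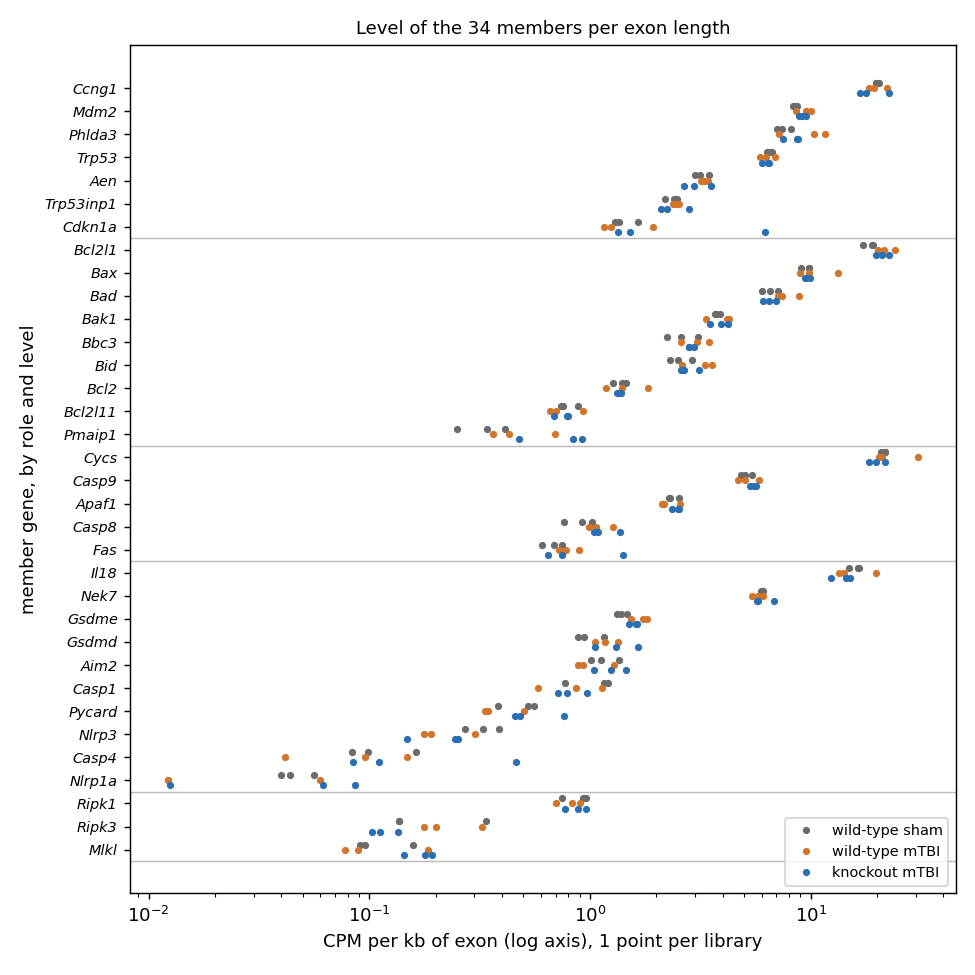
Level of the 34 genes in CPM per kb of exon on a log axis, 1 point per library, coloured by group and ordered by level within each role. Cycs, Bcl2l1 and Ccng1 lie near 20 CPM per kb in all 3 groups, and the points of Nlrp1a, Mlkl, Casp4 and Ripk3 lie lowest.

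None of the 33 tested genes passed an adjusted p under 0.05 (edgeR quasi-likelihood test, Benjamini-Hochberg over 20032 genes) in any of the 3 comparisons. Of all genes tested, 0.509% passed in the injury comparison, 0.0150% in the knockout comparison and 0.0699% between the injured knockout and sham. DESeq2 and limma voom, run on the same counts, also called 0 of the genes in each comparison. At an unadjusted p under 0.05, edgeR gave 3 of 33 in the injury comparison (Bcl2l1, Gsdme and Phlda3), where 13.2% of all genes had such a p. It gave 1 of 33 in the knockout comparison (Bad), against 6.60% of all genes, and 2 of 33 between the injured knockout and sham (Bcl2l1 and Pmaip1), against 7.20%. DESeq2 gave 3, 1 and 2 at an unadjusted p under 0.05, and limma voom 2, 0 and 4.

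The 3 libraries of a group lay entirely to one side of the other group's 3 for 2 of 33 genes in the injury comparison (Bcl2l1 and Gsdme), where 23.9% of all genes did so. In the knockout comparison that held for Bad and Ripk3, 2 of 33, with 9.72% of all genes, and for 7 of 33 between the injured knockout and sham (Bcl2l1, Casp8, Gsdme, Mdm2, Nlrp3, Pmaip1 and Ripk3), with 17.2%. In the injury comparison 21 of 33 estimates were above 0, against 53.03% of all genes, with a median log2 change of 0.06 where all genes had 0.02. The knockout comparison had 13 of 33 above 0, against 50.25% of all genes, and a median of -0.03 against 0.00. Between the injured knockout and sham it was again 21 of 33, against 52.64%, with a median of 0.05 against 0.01. The comparisons share libraries, so these counts are not independent of each other.

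**Figure D2:**
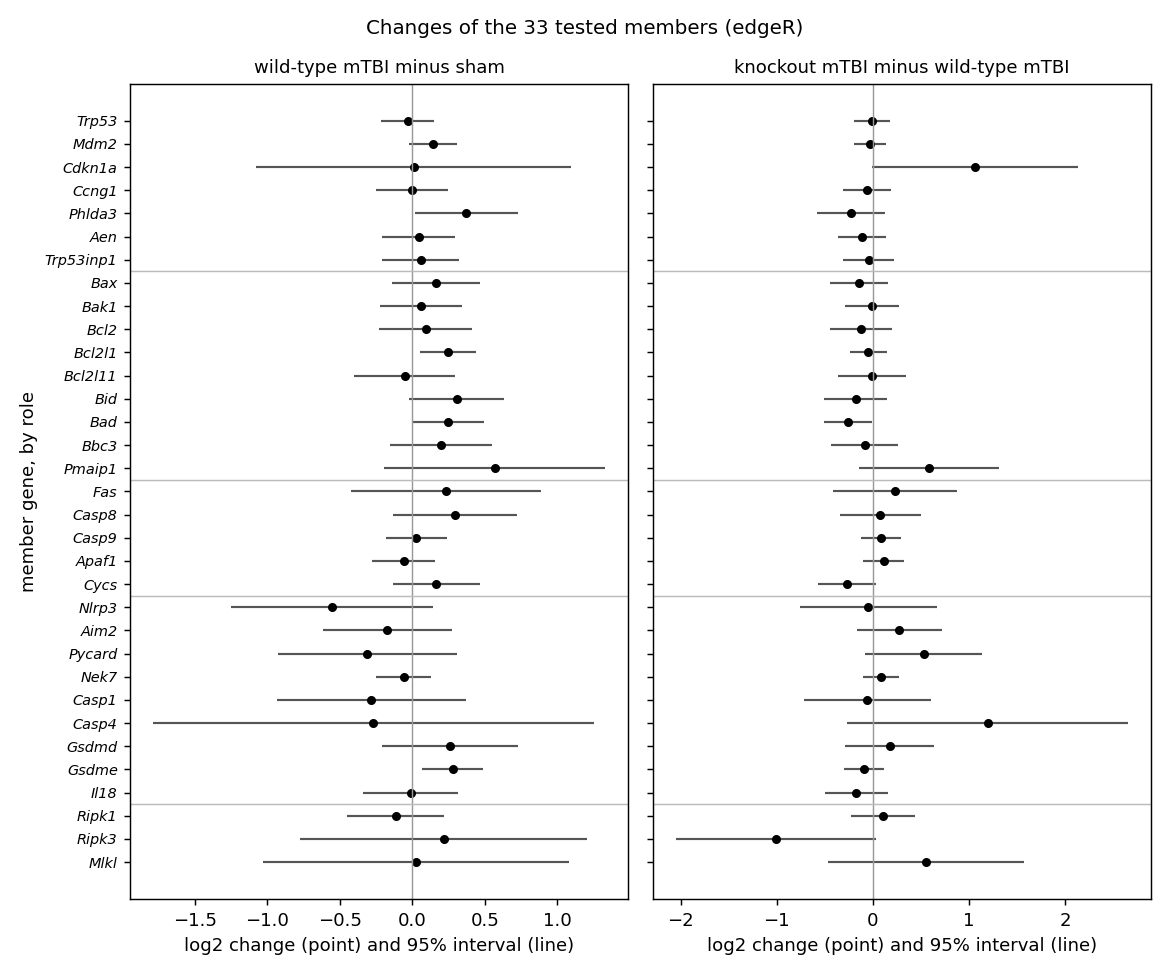
Log2 change of the 33 tested genes with its 95% interval (edgeR), wild-type mTBI minus sham on the left and knockout mTBI minus wild-type mTBI on the right, grouped by role. Most intervals span 0; on the left those of Phlda3, Bcl2l1 and Gsdme lie above it, and on the right that of Bad lies below it, before any adjustment for the number of genes.

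Trp53, which encodes p53, overlapped between all groups. It stood at 26.3 ± 0.667 CPM in sham, 25.7 ± 2.03 in wild-type mTBI and 25.5 ± 0.955 in the knockout group (SD, n = 3). Its log2 change with injury was -0.03, with a 95% interval from -0.22 to 0.15. Mdm2, the ubiquitin ligase that p53 induces and that degrades it, stood at 43.4, 42.6 and 43.9 CPM in sham, 48.6, 43.9 and 51.0 in wild-type mTBI, and 45.0, 48.6 and 46.7 in knockout mTBI. All 3 knockout libraries lay above all 3 sham libraries, and wild-type mTBI replicate 2 lay within the sham range. The log2 change of Mdm2 was 0.14 ± 0.08 (SE) with injury and 0.11 ± 0.08 between the injured knockout and sham, with adjusted p of 0.437 and 0.914.

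Among the p53 targets of arrest and feedback, Phlda3 came closest to the threshold with injury. It encodes a pleckstrin-homology protein that restrains the survival kinase AKT (Ensembl ENSMUSG00000041801, GRCm38 chromosome 1, 135766119 to 135769136). Its levels were 12.7, 10.97 and 11.6 CPM in sham, 18.2, 11.3 and 16.2 in wild-type mTBI, and 13.7, 13.6 and 11.7 in knockout mTBI. Wild-type mTBI replicates 1 and 3 were the highest of the 9, and replicate 2 lay among the sham libraries. Phlda3 had a log2 change of 0.37 (95% interval 0.02 to 0.73) with injury, an unadjusted p of 0.0411 and an adjusted p of 0.353. Without wild-type mTBI replicate 1 the change was 0.23, and without replicate 2 it was 0.54 with an adjusted p of 0.0920.

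Cdkn1a, the cell-cycle inhibitor p21 and the best known p53 target (chromosome 17, 29090976 to 29100727), was set apart by 1 library. It stood at 5.87, 4.82 and 4.63 CPM in sham and at 4.41, 4.13 and 6.87 in wild-type mTBI. In knockout mTBI it stood at 4.78, 22.0 and 5.42 CPM. Knockout replicate 2 was far above every other library, and the other 8 spanned 4.13 to 6.87. The log2 change of Cdkn1a in the knockout comparison was 1.06 ± 0.49 (SE), with an unadjusted p of 0.0517 and an adjusted p of 0.732, and it was -0.01 without knockout replicate 2. Between the injured knockout and sham the log2 change was 1.07, with an adjusted p of 0.694, and -0.01 without that library. With no filter on low counts, the adjusted p of that comparison was 0.0405, the only setting in which any of the genes was called.

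The other 3 targets of this group had overlapping groups. Ccng1, cyclin G1, stood at 70.4 ± 1.31, 70.2 ± 7.25 and 67.1 ± 11.2 CPM in sham, wild-type mTBI and knockout mTBI. Aen, an exonuclease that p53 induces, stood at 18.6 ± 1.37, 19.2 ± 0.677 and 17.7 ± 2.59 CPM. Trp53inp1, a stress-induced partner of p53, stood at 15.3 ± 1.03, 15.9 ± 0.509 and 15.4 ± 2.502 CPM. Over the 7 genes of the group, 5 estimates were above 0 with injury, against 53.03% of all genes, with a median log2 change of 0.04. In the knockout comparison 1 (Cdkn1a) was above 0, against 50.25% of all genes, with a median of -0.04. The largest spread of Ccng1 and Trp53inp1 fell in the knockout group, where replicate 2 had 79.8 CPM of Ccng1 and 18.3 CPM of Trp53inp1, the highest of the 9 libraries in both cases.

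p53 binds DNA as pairs of a short decamer, and RefSeq promoter windows (GRCm38.p6, 250 bases before to 50 after the transcript start) were searched on both strands for the p53 half-site consensus, which reads alike on either strand. Windows were found for 31 of the 34 genes, all but Trp53inp1, Pmaip1 and Gsdmd. A match was in 8 of the 31 genes, or 25.8%, against 9.55% of the 27025 genes with a window. Of the 11 genes listed as p53 targets, 9 had a window and 5 of these a match. Cdkn1a alone among the 31 had 2 matches within 13 bases of each other, as did 0.0740% of all genes. These 5 are Cdkn1a, Mdm2, Ccng1, Bax and Aen, and in Aen the match lies before 1 of 2 listed starts and after the other. The first 4, whose match lies upstream of every listed start, are shown with 20 bases on either side, each read 5′ to 3′ along the gene's strand, with the matches in capitals, because they set the sequence beside the levels of known p53 targets.
Cdkn1a, chr17:29090886-29090957, plus strand: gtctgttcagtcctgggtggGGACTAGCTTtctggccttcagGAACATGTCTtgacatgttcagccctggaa
Mdm2, chr10:117710915-117710964, minus strand: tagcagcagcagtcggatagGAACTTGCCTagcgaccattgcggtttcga
Ccng1, chr11:40755442-40755491, minus strand: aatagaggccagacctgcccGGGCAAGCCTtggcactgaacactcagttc
Bax, chr7:45467070-45467119, minus strand: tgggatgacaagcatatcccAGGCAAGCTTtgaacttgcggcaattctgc
In Cdkn1a the pair starts 73 bases before the transcript start with 12 bases between the matches, and the single matches start 186 bases before it in Mdm2, 185 in Ccng1 and 201 in Bax. Only exact matches were marked, so near matches stand in lower case. Among them are the 10 bases right after the second match in Cdkn1a, which depart from the consensus at their first base only. Matches also stood in the windows of Pycard, Nlrp3 and Trp53, which are not among the genes listed as p53 targets and are not shown. A match is a stretch of letters and not a measured binding site, and bases outside the windows were not searched. With injury the 4 genes shown had log2 changes of 0.01, 0.14, 0.00 and 0.16 in the order shown, none of which was called.

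**Figure D3:**
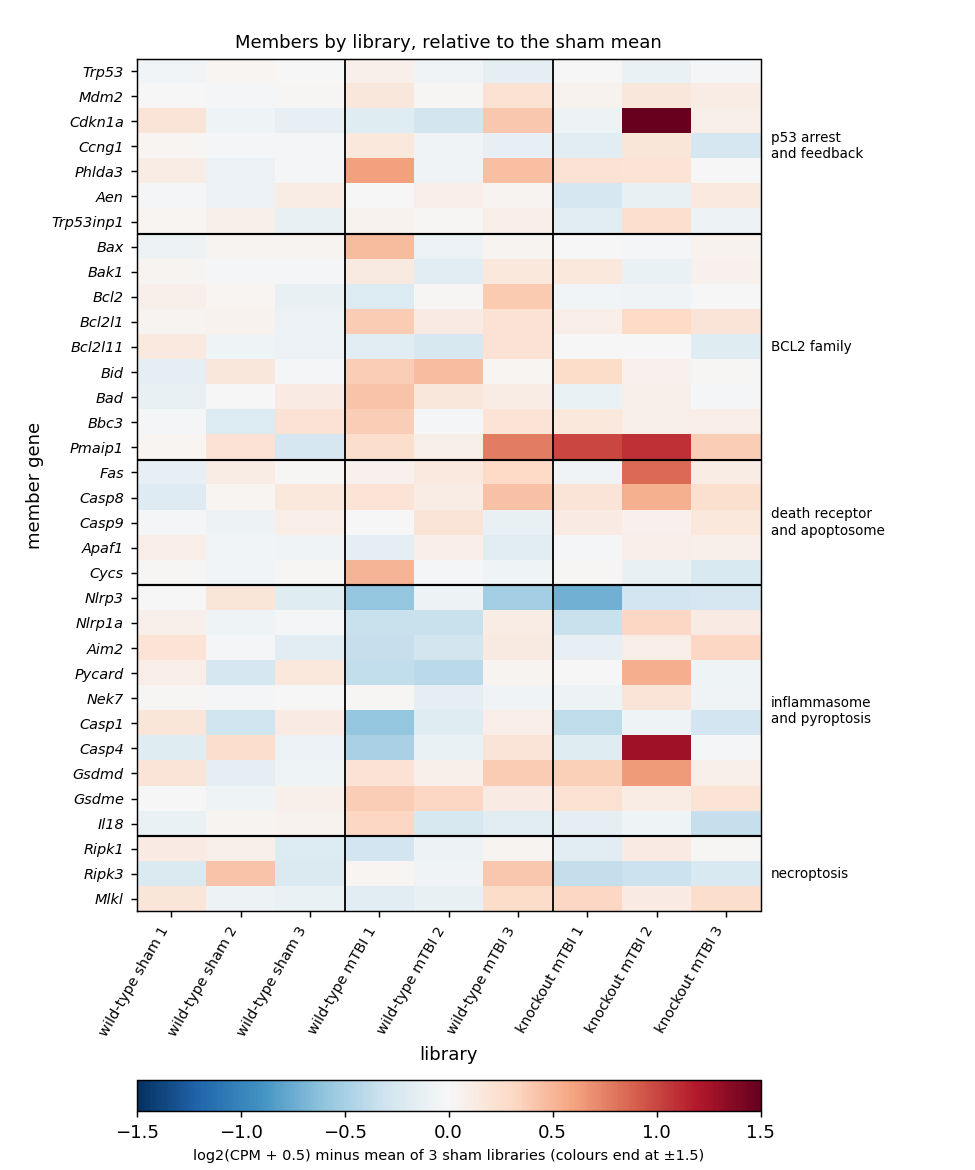
Level of each of the 34 genes in each of the 9 libraries as log2(CPM + 0.5) minus the mean of the 3 sham libraries, in rows by role and columns by group; red is above the sham mean, blue below, and colours end at ±1.5. The column of knockout mTBI replicate 2 holds the deepest reds, in Cdkn1a, Pmaip1 and Casp4.

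In the BCL2 family, 8 of 9 estimates were above 0 with injury, all but that of Bcl2l11, against 53.03% of all genes. The median log2 change was 0.20 against 0.02 over all genes, and none was called. With 1 library left out, the estimates of Bax, Bak1 and Bcl2 fell as low as -0.027, -0.0097 and -0.0995. All 10 ependymal and choroid markers were above 0 in the same comparison, with a median log2 change of 4.30 and 6 called higher, and their part in the levels of these or the other genes described was not tested. Bcl2l1 (chromosome 2, 152780668 to 152831728, minus strand) had the smallest p of the family. Its levels were 87.5, 87.6 and 79.5 CPM in sham, 111, 92.6 and 98.6 in wild-type mTBI, and 90.8, 105 and 97.1 in knockout mTBI. All 6 injured libraries lay above all 3 sham libraries, and the injured groups overlapped. Bcl2l1 was 1.19-fold of sham with injury (log2 0.25, 95% interval 0.05 to 0.44), with an unadjusted p of 0.0163 and an adjusted p of 0.263. In the injured knockout its log2 change from sham was 0.20 (0.01 to 0.39), with an adjusted p of 0.659. The count does not tell the long survival form from the short form of this gene, since it is per gene.

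Bad, a BH3-only protein held in check by phosphorylation (chromosome 19, 6941861 to 6951899), had the only unadjusted p under 0.05 in the knockout comparison. It stood at 15.5, 16.8 and 18.3 CPM in sham, 22.8, 18.9 and 18.2 in wild-type mTBI, and 15.6, 17.9 and 16.6 in knockout mTBI. The knockout libraries lay below the wild-type mTBI libraries, by a narrow margin, and within the sham range. Its log2 change was -0.26 (95% interval -0.51 to -0.01) in the knockout comparison, with an unadjusted p of 0.0458 and an adjusted p of 0.732, and 0.24 with injury, with an adjusted p of 0.389. Without wild-type mTBI replicate 1 these were -0.15 and 0.14. Its exons share 524 bases with Gpr137 on the opposite strand, and strand was not used in the counting, so reads of the 2 genes cannot be told apart there.

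Pmaip1, which encodes the BH3-only protein NOXA, is a p53 target and had the largest log2 change of the family. Its levels were 0.935, 1.13 and 0.681 CPM in sham, 1.18, 0.994 and 1.89 in wild-type mTBI, and 2.30, 2.51 and 1.31 in knockout mTBI. All 3 knockout libraries lay above all 3 sham libraries, while the wild-type mTBI libraries overlapped both groups. Between the injured knockout and sham Pmaip1 was 2.23-fold (log2 1.15, 95% interval 0.40 to 1.91), with an unadjusted p of 0.00613 and an adjusted p of 0.339. Its log2 change was 0.57 with injury and 0.59 in the knockout comparison, with adjusted p of 0.496 and 0.739. Without wild-type mTBI replicate 3, the highest of its group, these were 0.24 and 0.91, and the other fits that left out 1 library gave 0.39 to 0.74 and 0.41 to 0.82. Without knockout replicate 2, the highest of the 9 libraries, the change from sham was 0.97.

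The pore formers overlapped between groups. Bax stood at 15.1 ± 0.670, 16.9 ± 3.67 and 15.2 ± 0.396 CPM in sham, wild-type mTBI and knockout mTBI. Its wild-type mTBI mean rests on replicate 1 at 21.01 CPM: without it the log2 change with injury turned from 0.16 to -0.03. Bak1 stood at 9.10 ± 0.261, 9.48 ± 1.19 and 9.40 ± 0.883 CPM. Bcl2, the founding survival gene of the family, stood at 12.6 ± 0.860, 13.5 ± 2.97 and 12.4 ± 0.266 CPM. The log2 ratio of Bax to Bcl2, per kb of exon, was 2.79 ± 0.153 in sham, 2.86 ± 0.555 in wild-type mTBI and 2.84 ± 0.00745 in the knockout group. In wild-type mTBI it was 3.49, 2.68 and 2.43, so replicate 1 lay above and replicate 3 below every library of the other groups.

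The other BH3-only genes varied by less than the interval of their change. Bid, which caspase-8 cleaves to link the 2 apoptosis routes, stood at 9.10 ± 1.082, 11.3 ± 1.79 and 9.94 ± 1.03 CPM, with a log2 change of 0.31 (95% interval -0.02 to 0.63) with injury and an adjusted p of 0.403. Its exons share 628 bases with Bcl2l13 on the opposite strand, a gene with 17820 counts over the 9 libraries against 3511 for Bid. Bbc3, which encodes the p53-induced protein PUMA, stood at 5.61 ± 0.907, 6.45 ± 0.931 and 6.07 ± 0.175 CPM. Bcl2l11, which encodes BIM, stood at 6.36 ± 0.614, 6.12 ± 1.16 and 6.08 ± 0.462 CPM. Only the estimate of Pmaip1 was above 0 among the 9 of the family in the knockout comparison, against 50.25% of all genes. The median log2 change was -0.09 against 0.00 over all genes.

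**Figure D4:**
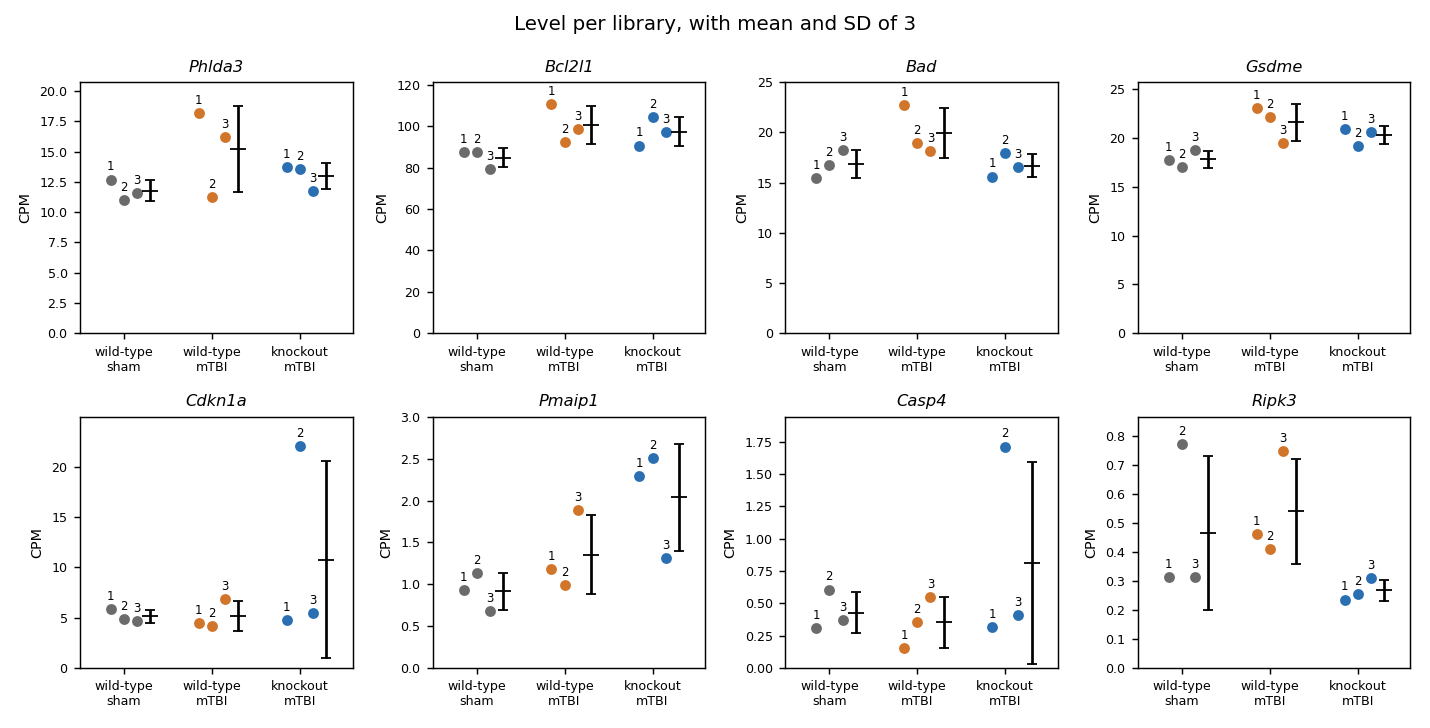
CPM of 8 genes in each library (points numbered by replicate) with the mean and SD of each group of 3. Bcl2l1 and Gsdme lie above sham in all 6 injured libraries, Bad and Ripk3 are lower in all 3 knockout than in all 3 wild-type mTBI libraries, and knockout replicate 2 is the highest point for Cdkn1a, Pmaip1 and Casp4.

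In the death receptor and apoptosome branch, no gene had an unadjusted p under 0.05 in any comparison. Casp8, the initiator caspase of the death receptors, stood at 2.21, 2.67 and 2.96 CPM in sham, 3.08, 2.86 and 3.69 in wild-type mTBI, and 3.03, 3.96 and 3.16 in knockout mTBI. The knockout libraries all lay above sham, and wild-type mTBI replicate 2 lay within the sham range. Its log2 change was 0.30 with injury and 0.37 between the injured knockout and sham, with adjusted p of 0.530 and 0.785. Fas, the receptor, stood at 1.40 ± 0.149 CPM in sham, 1.65 ± 0.181 in wild-type mTBI and 1.93 ± 0.860 in the knockout group. Knockout replicate 2 had 2.92 CPM of Fas against 1.33 and 1.54 in the other knockout libraries, and without it the log2 change in the knockout comparison turned from 0.23 to -0.19.

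The apoptosome genes overlapped between groups. Casp9, its initiator caspase, stood at 26.5 ± 1.64, 27.0 ± 3.04 and 28.6 ± 0.986 CPM, and Apaf1, its scaffold, at 21.4 ± 1.28, 20.6 ± 2.17 and 22.3 ± 0.903 CPM. The 95% interval of the log2 change with injury ran from -0.18 to 0.24 for Casp9 and from -0.28 to 0.16 for Apaf1. Cycs stood at 73.1 ± 1.77, 82.0 ± 19.5 and 68.1 ± 5.91 CPM. Its wild-type mTBI libraries held 104, 71.9 and 69.6 CPM, so replicate 1 alone lay above sham, and without it the log2 change with injury turned from 0.17 to -0.05. Cycs has near-identical processed copies in the genome, and reads that align to several places were left out of the counts, so its level is uncertain.

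In the inflammasome and pyroptosis group, 2 of the 9 tested estimates were above 0 with injury, those of the gasdermins Gsdmd and Gsdme, against 53.03% of all genes. The median log2 change was -0.17. Gsdme, a gasdermin that caspase-3 cleaves (chromosome 6, 50188888 to 50263862, minus strand), had the smallest p of all 33 genes with injury. It stood at 17.7, 16.98 and 18.7 CPM in sham, 23.1, 22.2 and 19.5 in wild-type mTBI, and 20.9, 19.2 and 20.7 in knockout mTBI. All 6 injured libraries lay above all 3 sham libraries, and the injured groups overlapped. Gsdme was 1.21-fold of sham with injury (log2 0.28, 95% interval 0.07 to 0.49), with an unadjusted p of 0.0136 and an adjusted p of 0.250. Gsdmd, the gasdermin that caspase-1 and caspase-11 cleave, stood at 2.36 ± 0.348, 2.83 ± 0.346 and 3.19 ± 0.700 CPM, with a log2 change of 0.44 between the injured knockout and sham and an adjusted p of 0.737.

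Of the sensors, Nlrp3, which responds to many signs of damage, stood at 1.32, 1.57 and 1.10 CPM in sham, 0.718, 1.22 and 0.772 in wild-type mTBI, and 0.601, 0.998 and 1.03 in knockout mTBI. All 3 knockout libraries lay below all 3 sham libraries, and wild-type mTBI replicate 2 lay within the sham range. Its log2 change was -0.56 (95% interval -1.25 to 0.14) with injury and -0.60 (-1.30 to 0.10) between the injured knockout and sham, with adjusted p of 0.469 and 0.796. Aim2, a sensor of DNA in the cytosol, stood at 4.07 ± 0.605, 3.61 ± 0.763 and 4.37 ± 0.726 CPM. Nlrp1a, the sensor left out by the filter, had 9, 6 and 7 counts in sham, 2, 2 and 10 in wild-type mTBI, and 2, 14 and 10 in knockout mTBI; its near copy Nlrp1b makes even these uncertain.

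Pycard, which encodes the adaptor ASC, stood at 2.00, 1.46 and 2.12 CPM in sham, 1.31, 1.27 and 1.92 in wild-type mTBI, and 1.83, 2.92 and 1.75 in knockout mTBI. The groups overlapped, and knockout replicate 2 was the highest. It had a log2 change of 0.53 (95% interval -0.08 to 1.14) in the knockout comparison and an adjusted p of 0.739, and the change was 0.25 without knockout replicate 2. Its exons share 485 bases with the transcript Gm45205 on the opposite strand. Casp1, which matures the cytokines IL-1 beta and IL-18, stood at 1.57 ± 0.358, 1.29 ± 0.411 and 1.24 ± 0.199 CPM. Casp4, known in the mouse as caspase-11 and a sensor of bacterial lipopolysaccharide, had 12, 22 and 14 counts in sham, 6, 14 and 22 in wild-type mTBI, and 12, 67 and 16 in knockout mTBI. Knockout replicate 2 was again alone: the log2 change of Casp4 in the knockout comparison was 1.19 (-0.26 to 2.65) with all libraries and 0.04 without it. Casp1 and Casp4 are neighbouring paralogs, so reads from shared stretches may be missing from either.

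Il18 stood at 16.4 ± 0.943, 16.3 ± 3.59 and 14.45 ± 1.497 CPM, and Nek7 at 44.3 ± 0.443, 42.6 ± 2.41 and 45.2 ± 4.72 CPM. For Nek7 the 95% interval of the log2 change ran from -0.25 to 0.13 with injury and from -0.10 to 0.28 in the knockout comparison. Of the 9 estimates of the inflammasome group, 5 were above 0 in the knockout comparison, against 50.25% of all genes, with a median log2 change of 0.09.

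The 3 necroptosis genes differ in level. Ripk1, the kinase shared by survival, apoptosis and necroptosis signalling, stood at 7.32 ± 0.955, 6.76 ± 0.821 and 7.27 ± 0.792 CPM, and its exons share 241 bases with Serpinb6a on the opposite strand. Ripk3, the kinase that commits a cell to necroptosis, had 12, 28 and 12 counts in sham, 18, 16 and 30 in wild-type mTBI, and 9, 10 and 12 in knockout mTBI. In CPM these were 0.312, 0.772 and 0.314, then 0.462, 0.408 and 0.747, then 0.235, 0.256 and 0.308. The knockout libraries were lowest and did not overlap either other group, although sham replicates 1 and 3 stood just above them. Ripk3 had a log2 change of -1.01 (95% interval -2.05 to 0.03) in the knockout comparison, with an unadjusted p of 0.0563 and an adjusted p of 0.732. Mlkl, the executioner, had 7 to 17 counts per library, at 0.264 ± 0.0859, 0.269 ± 0.134 and 0.396 ± 0.0575 CPM. With 3 libraries a group, the exact two-sided permutation test of a single gene cannot go below 0.1, the value it gave for Ripk3 and for Bad in the knockout comparison and for Bcl2l1 and Gsdme in the injury comparison.

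Knockout mTBI replicate 2 was the highest of the 9 libraries for 11 of the 33 genes, or 33.3%, and the lowest for 0. Over all genes it was highest for 14.1% and lowest for 13.6%. The 11 were Cdkn1a, Ccng1 and Trp53inp1 of the p53 group, Pmaip1 of the BCL2 family, Fas and Casp8 of the death receptor branch, Pycard, Nek7, Casp4 and Gsdmd of the inflammasome group, and Ripk1. The library also held the most of the 10 microglia markers, 425 CPM against 298 to 346 in the other 8, and of the 10 markers of infiltrating myeloid cells, 41.1 CPM against 15.7 to 25.4. Within the microglia list, C1qa was at 52.9 CPM in it against 22.1 to 35.4 elsewhere, while P2ry12 was at 16.7 against 28.8 to 34.4. It was the highest library for 7 of the 10 microglia markers and the lowest for 2, P2ry12 and Trem2. It was the highest for 7 of the 10 myeloid markers, among them S100a8 and S100a9 at 2.35 and 3.66 CPM, while Ly6c2, Ms4a7 and Cd52 were highest in wild-type mTBI replicate 3. Other lists were also uneven in this knockout library. It was the highest for 5 of the 10 endothelial markers and the lowest for 3. Of the 10 neuronal markers it was the highest for 0 and the lowest for 4, and of the 10 astrocyte markers the highest for 2 and the lowest for 1. The part of these cells in the levels of the 11 genes was not tested, and in bulk libraries more cells of a type cannot be told apart from more RNA per cell.

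Wild-type mTBI replicate 1 was the highest library for 9 of the 33 genes, or 27.3%, namely Trp53, Phlda3, Bax, Bcl2l1, Bad, Bbc3, Cycs, Gsdme and Il18, and the lowest for 6. Over all genes its share was 27.1% highest and 24.7% lowest, near those of the 33 for the highest values. Over the BCL2 family its median log2 difference from the sham mean was 0.37, against 0.02 in replicate 2 and 0.21 in replicate 3. The 22 of the genes with a mean of at least 5 CPM had a median coefficient of variation of 6.09% in sham, 12.3% in wild-type mTBI and 8.07% in the knockout group. Over all 12070 genes at that level it was 3.52%, 11.3% and 7.18%.

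**Figure D5:**
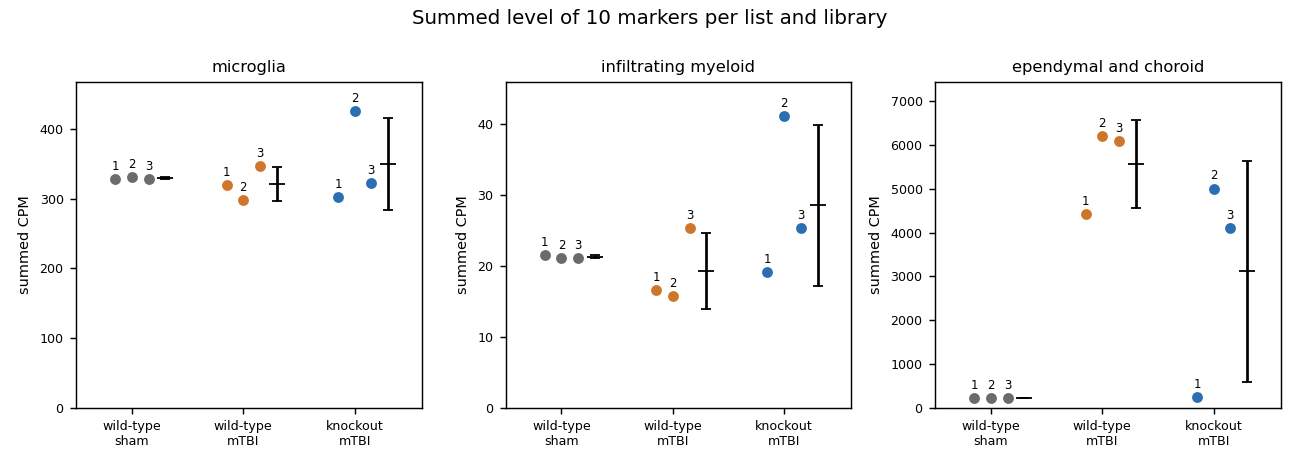
Summed CPM of 10 markers each of microglia, of infiltrating myeloid cells and of ependymal and choroid plexus cells, by library (points numbered by replicate) with the mean and SD of each group of 3. Knockout replicate 2 is highest in the first and middle panels, and the 3 sham libraries and knockout replicate 1 lie at 229 to 241 CPM in the last, where the other 5 libraries lie at 4097 to 6200 CPM.

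The wider pathways were read from lists of other genes. Of 28 tested other genes of the p53 pathway, 1 was called with injury, against 0.509% of all genes: Perp, a p53 target in cell adhesion and death. Its levels were 3.32, 3.33 and 4.27 CPM in sham, 7.29, 8.08 and 8.14 in wild-type mTBI, and 4.84, 7.52 and 6.83 in knockout mTBI. Perp rose 2.15-fold with injury (log2 1.10 ± 0.18 SE, adjusted p = 0.0363), with all 3 injured wild-type libraries above all 3 sham libraries. The call was lost in 6 of the 9 fits that left out 1 library and with the sham libraries summed, where the log2 change stayed between 1.04 and 1.24. Ependymal and choroid markers moved with it: their sum was 229 CPM in each sham library, 4421 to 6200 in wild-type mTBI, and 241, 5009 and 4097 in knockout mTBI, and the part of those cells in Perp was not tested. Next by p were Atm, the DNA damage kinase, at a log2 change of -0.60 and adjusted p of 0.197, and Trp73, a p53 relative that choroid and ependymal cells also express, at 0.57 and 0.237. Limma voom with sample quality weights called Atm and Trp73 as well. Perp had a log2 change of 0.81 between the injured knockout and sham, with an adjusted p of 0.171 by edgeR, while DESeq2 and limma voom called it, at 0.0125 and 0.0324. In that comparison edgeR gave 5 of the 28 an unadjusted p under 0.05, against 7.20% of all genes. With injury it gave 5 of the 28 such a p, against 13.2% of all genes. DESeq2 was run without the filter and by default can leave genes of low count without an adjusted p. Its list sizes are therefore of genes given to it, not of genes tested. Of the 28 (30 given to DESeq2), 0 were called in the knockout comparison by edgeR, DESeq2 or limma voom. By edgeR 0 had an unadjusted p under 0.05 in it, against 6.60% of all genes. The smallest p belonged to Rrm2b, a subunit of ribonucleotide reductase, at a log2 change of 0.17, Trp53inp2 at -0.18 and Perp at -0.29.

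Of 30 tested other apoptosis genes, edgeR called 0 in the injury and 0 in the knockout comparison. At an unadjusted p under 0.05 it had 2 with injury, against 13.2% of all genes, and 3 in the knockout comparison, against 6.60%. The flavoprotein Aifm1, which carries death signals from mitochondria to the nucleus, came closest with injury. It stood at 22.3, 23.4 and 24.1 CPM in sham, 31.7, 28.7 and 29.5 in wild-type mTBI, and 25.8, 27.3 and 24.5 in knockout mTBI. The 3 groups did not overlap, with a log2 change of 0.37 ± 0.08 (SE) with injury at an adjusted p of 0.0809, and -0.21 in the knockout comparison at 0.732. DESeq2, which was given 32 of the list, and limma voom each called Aifm1 with injury, and called 0 in the knockout comparison. The 3 tools called 0 of this list between the injured knockout and sham, with 2 of 30 at an unadjusted p under 0.05 by edgeR, against 7.20% of all genes. Fadd, the adaptor between FAS and caspase-8, had a log2 change of -0.46 with injury, and Mcl1, a survival gene of the BCL2 family, 0.25. In the knockout comparison Diablo, which frees caspases from their inhibitors, was at 0.46, at an adjusted p of 0.732.

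Of 19 tested other inflammasome and pyroptosis genes (25 given to DESeq2), edgeR, DESeq2 and limma voom called 0 in each of the 3 comparisons. With edgeR, 3 had an unadjusted p under 0.05 with injury, against 13.2% of all genes. These were Ninj1, which ruptures the membrane of dying cells, at a log2 change of 0.36, Il18bp, the decoy for IL-18, at -0.48, and Casp12 at -0.95. None had such a p in the knockout comparison, against 6.60% of all genes. There Txnip, a partner of NLRP3, was at 0.36, the sensor Naip5 at 0.67 and Il18bp at 0.33. In the third comparison, of the injured knockout with sham, 3 of the 19 had such a p, against 7.20% of all genes. Of 18 tested other necroptosis genes (19 given to DESeq2), these tools called 0 in each of the 3 comparisons. With edgeR, 0 had an unadjusted p under 0.05 with injury, against 13.2% of all genes. There Tlr3 was at -0.24, the deubiquitinase Cyld at -0.16 and the membrane repair gene Chmp4b at 0.20. In the knockout comparison 2 of the 18 had such a p, against 6.60% of all genes. They were Cyld at 0.21 and Zbp1, a sensor of Z-form nucleic acids that engages RIPK3, at 1.22, followed by Rnf31 at 0.15, above that p. Between the injured knockout and sham 1 of the 18 had one, against 7.20% of all genes.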

How the data were processed

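The authors deposited raw counts of reads per Ensembl gene for 9 libraries in 1 table. Per the file headers, the counts were made with featureCounts 2.0.6 over exons of Ensembl release 98 on GRCm38, with no option for strand, for counting pairs as fragments or for reads with several alignments. By its defaults both mates were counted singly and multi-mapping reads left out. Per the submitters' processing notes, FastQC, Trim Galore, HISAT2, SAMtools and MultiQC were also used, with genome mm10. Symbols, positions and exon lengths came from GENCODE M21, which matched 55240 of 55421 genes.

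Levels are CPM with TMM factors. Genes passing filterByExpr (20032) were tested for change in either direction with edgeR 4.0.16 (R 4.3.3) by its quasi-likelihood F test, all 9 libraries in 1 fit, 6 residual degrees of freedom, a shared spread and Benjamini-Hochberg adjustment over all genes of a comparison. Genes were called at an adjusted p under 0.05. The labels say 3 mice per group and do not say that libraries were prepared separately, so p-values measure the spread between these libraries. The script was tested on simulated data.

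All 34 genes are named. Those whose groups did not overlap, or with an unadjusted p under 0.05, are given in every library, as are a few others chosen after their values were seen (Cdkn1a, Casp4, Nlrp1a, Pycard and single values beside a group mean). Of each other list the called genes and the 3 of smallest p in the injury and knockout comparisons are named, except 1 that is not reported here. The genes, lists and rules were chosen with earlier results of these data known. Other settings tried were DESeq2 1.42.0, limma 3.58.1 voom with sample quality weights, library scaling by RLE or by totals alone, no filter, a stricter filter (1 CPM in 3 libraries), only the 6 libraries of a comparison, a replicate block, halved counts, each library left out, wild-type and knockout mTBI replicate 1 left out together and, chosen after the data were seen, the sham libraries summed.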

Additional observations from a re-analysis of the deposited data

How the results depend on the processing

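Over the alternatives, 0 of the 33 genes were called in any comparison, except 1, Cdkn1a, between the injured knockout and sham with no count filter. The number of all genes called varied far more. With injury (102 called) it was 536 with DESeq2, 722 with limma voom, 676 with no filter, 64 with a stricter filter, 253 with 6 libraries, 523 without both replicates 1, 1 with the sham libraries summed and 5 to 252 with 1 library left out; the 3 fits without 1 sham library gave 5, 5 and 9, and those without wild-type mTBI replicate 3, knockout replicate 1 and knockout replicate 3 gave 26, 252 and 40. In the knockout comparison (3 called) it was 18 with DESeq2, 68 with no filter, 1 with 6 libraries, 24 without both replicates 1, 1 with the sham libraries summed and 2 to 7 with 1 library left out. Between the injured knockout and sham (14 called) it was 223, 279, 387, 71, 337, 0 and 2 to 128 with DESeq2, limma voom, no filter, 6 libraries, both replicates 1 left out, the sham libraries summed and 1 library left out. Same-numbered libraries correlated between -0.0948 and 0.0739 in their deviations, and differently numbered ones between -0.127 and 0.153. With 3 libraries a group, and sham libraries that differ little from each other, this cannot decide whether the numbers pair the samples. With the replicate block 107, 3 and 13 genes were called in the 3 comparisons, and 0 of the 33.

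A turn in direction with a shift of more than a standard error was seen for 5 of 33 genes with injury. It was seen for 8 in the knockout comparison and 5 between the injured knockout and sham. The turned estimates were often near 0. Counting shifts of any size, 8 of 33 signs turned with injury without wild-type mTBI replicate 3. In the knockout comparison 7 turned without wild-type mTBI replicate 1, and against sham 5 of the injured knockout turned without knockout replicate 2. With limma voom, Cycs with injury was at -0.0085 and Bax in the knockout comparison at 0.0244. Without both replicates 1, Bax was at -0.0269 and Cycs at -0.0468 with injury, and Ccng1 at 0.0675, Bax at 0.0493, Bcl2l1 at 0.0763 and Bcl2l11 at -0.0984 in the knockout comparison, with Casp4 at 1.3096 between the injured knockout and sham. With 1 library left out, log2 changes with injury ranged from -0.027 to 0.264 for Bax, -0.0468 to 0.261 for Cycs, -0.0762 to 0.0897 for Casp9, -0.0995 to 0.225 for Bcl2 and -0.466 to 0.316 for Mlkl. In the knockout comparison they ranged from -0.2502 to 0.0433 for Bax, -0.266 to 0.0217 for Il18, -0.256 to 0.066 for Bcl2, -0.0947 to 0.1605 for Bcl2l11, -0.0088 to 1.4163 for Cdkn1a, -0.2064 to 0.0207 for Ccng1, -0.0969 to 0.0279 for Bcl2l1 and -0.1934 to 0.4357 for Fas. Between the injured knockout and sham they ranged from -0.006 to 1.4261 for Cdkn1a, -0.1291 to 0.0996 for Trp53inp1, -0.0623 to 0.3503 for Pycard, -0.0649 to 0.0768 for Nek7 and -0.2382 to 1.309 for Casp4, each time lowest without knockout replicate 2. The cause was not tested.

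The common biological coefficient of variation was 3.26% in sham, 19.6% in wild-type mTBI and 18.7% in the knockout group, while the fit shares 1 estimate, so p-values against sham depend on how far those libraries are independent. Ripk3, Mlkl, Casp4 and Nlrp1a had 2 to 67 counts per library, and no detection limit was computed for them.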
